A study of Mus musculus with 6 samples.

Results

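The FK506 binding proteins (FKBPs) and cyclophilins examined here are 10 genes: Fkbp1a, Fkbp2, Fkbp3, Fkbp4, Fkbp5, Fkbp11, Fkbp14, Ppia, Ppib and Ppic. Every probe set whose annotated symbol was exactly one of these names was taken, which gave 22 probe sets of 9 genes out of 45037 probe sets on the array. No probe set carried Ppia as its single symbol. The probe set 1417451_a_at is annotated to Ppia and to the predicted gene Gm9234 together, so it is not counted as a measure of either gene. It read 11034, 12347 and 11714 on the B cell arrays and 11648, 11602 and 11923 on the plasma cell arrays, which overlap.

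Both families are peptidyl-prolyl isomerases, enzymes that speed the rotation of the peptide bond before proline, a slow step in protein folding. FKBPs bind the drugs FK506 and rapamycin, and cyclophilins bind cyclosporin A. Some members carry a signal peptide and work in the endoplasmic reticulum (ER), where antibody chains fold, while others work in the cytosol or the nucleus. Here Fkbp2, Fkbp11, Fkbp14, Ppib and Ppic are set as ER members beside Fkbp1a, Fkbp3, Fkbp4, Fkbp5 and Ppia as cytosolic or nuclear members.

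The samples came from C57BL/6 mice. Plasma cells, the antibody-secreting end stage of the B lineage, were B220- CD138+ cells of bone marrow, taken 7 days after the animals had been boosted with the protein antigen KLH. They were enriched on beads against CD138 before sorting, and 50000 to 70000 cells went into an array. B cells were B220+ CD23+ cells of spleen, which the design text calls naive, with 2000000 to 3000000 cells an array. Each group had 3 arrays, and RNA of both was amplified with the same kit. Age, sex and any pooling of animals are not given in the sources used here. The labels do not tie the replicates to separate animals, and the p-values therefore rest on a spread between arrays that may be technical. Among the B cell arrays that spread also holds the difference of array 1 in sex-linked genes given below. Tissue, boost, bead enrichment and cell input changed together with cell type, and their effects cannot be told apart. A lower intensity in such bulk samples cannot separate fewer expressing cells from less RNA per cell.

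Of 9 measured plasma cell markers 9 were called higher in plasma cells, and of 9 measured B cell markers 9 were called lower, the sort markers Sdc1 and Fcer2a among them. B cell array 1 stood apart, with a median intensity of 130.0 against 86.7 to 95.1 on the other 5 arrays and a Pearson correlation across probe sets of 0.933 and 0.926 with the other B cell arrays, which had 0.992 with each other. Most lists of markers of other cell types had a higher summed intensity on it than on B cell arrays 2 and 3. The list of megakaryocytes and platelets did not (964 against 859 and 1099). The summed intensity of 10 T and NK cell markers was 6770 there against 1110 and 1124 on B cell arrays 2 and 3 and 1750 to 2951 on the plasma cell arrays, with 9 markers over background there, 6 and 8 on the other B cell arrays and 9 to 10 on the plasma cell arrays. For 6 erythroid markers the sum was 3639 against 751 and 675, and 796 to 981 on the plasma cell arrays. Of these markers 4 were over background there, 1 and 3 on the other B cell arrays and 2 to 6 on the plasma cell arrays. For 9 granulocyte markers the sum was 13076 against 2951 and 1935, and 8747 to 20981 on the plasma cell arrays. Of these, 8 were over background there, 8 and 6 on the other B cell arrays and 7 to 8 on the plasma cell arrays. The X-linked transcript Xist read 8408 on B cell array 1, 30.8 and 18.1 on arrays 2 and 3 and 8070 to 8702 on the plasma cell arrays, and the Y-linked Kdm5d read 3.57, 1507 and 1576 on the B cell arrays and 3 to 8.84 on the plasma cell arrays. By both genes B cell arrays 2 and 3 differed from all other arrays, which is the pattern of a sex difference. No plasma cell array shared their pattern, so in the main comparison of all arrays that difference runs partly along with cell type. In comparisons without array 1 it runs fully along with cell type and cannot be told apart from it. The part of these differences in the results below was not tested, and values without B cell array 1 stand beside the results they touch.

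Values are intensities, and differences are log2 fold changes of plasma cells minus B cells on the scale log2(intensity + 16), fitted with limma over all 45037 probe sets with Benjamini-Hochberg adjustment. A probe set with adjusted p under 0.05 is called higher or lower. Background is the 95th percentile of 27 bacterial control probe sets, 23.0 to 41.8 over the 6 arrays. Probe sets whose name ends in _x_at or _s_at hold probes that can match transcripts of other genes. Of the 22, 4 have the suffix x and 1 the suffix s.

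Of the 5 ER members 4 rose in plasma cells and 0 fell, whereas among the 4 measured cytosolic and nuclear members 1 rose and 1 fell. These counts take the brightest probe set of each gene in a second fit over 18193 genes, of which 17.6% were called higher and 12.3% lower, 29.9% in all. The median log2 fold change was 2.71 over the 5 ER members and −0.07 over the 4 others, beside −0.06 over all genes. Fkbp11 counts among the ER genes that rose through its probe set with suffix s alone. Without suffix x and s probe sets 4 members in place of 5 were higher, Fkbp11 being the one lost. Over probe sets the median was 1.31 for the 9 of ER members and −0.02 for the 13 others, beside −0.128 over all. The difference between the compartments was not tested. At the level of probe sets 5 of 9 ER and 4 of 13 cytosolic or nuclear probe sets were called higher, beside 13.4% of all probe sets, 1 of the 4 being an Fkbp4 probe set within background on all 6 arrays, and 0 of 9 and 3 of 13 were called lower, beside 12.8%. No ER probe set was lower at an unadjusted p under 0.05 either. Together 12 of the 22 were called, beside 26.2% of all probe sets, and for 14 of the 22 the arrays of the groups did not overlap, beside 45.4%. For the 9 genes the groups lay apart in 7, beside 47.8% of all genes. Of the 22 probe sets 5 stayed within background on all 6 arrays, and 17 exceeded it on at least 1.

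**Figure D1:**
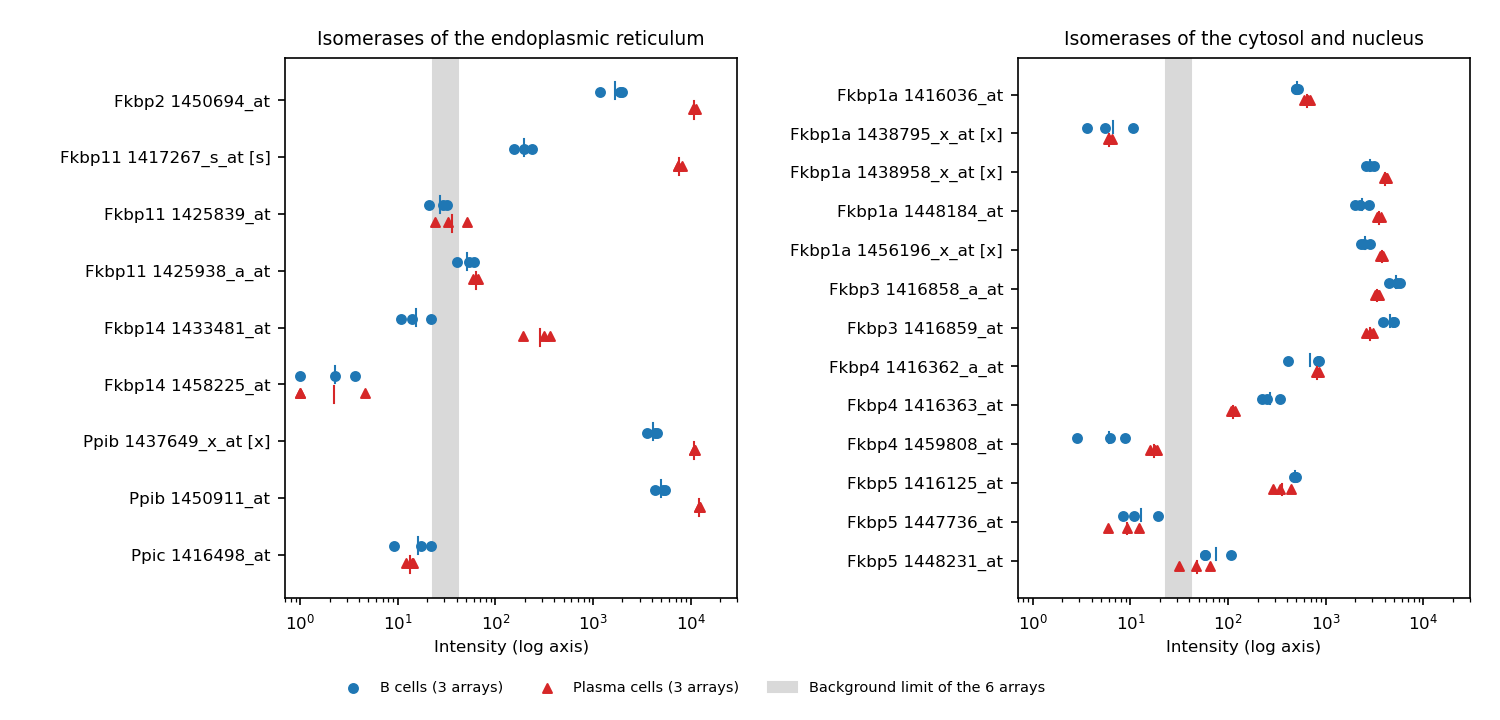
Intensity of each of the 22 probe sets on every array (log axis, circles for 3 B cell arrays, triangles for 3 plasma cell arrays, short bars for group means, grey band for the background limits of 23.0 to 41.8). The triangles of Fkbp2, the Fkbp11 probe set with suffix s, Fkbp14 1433481_at and both Ppib probe sets lie right of all circles, while those of the cytosolic members lie close to them.

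Fkbp2 (FKBP13), a small ER-resident FKBP, has 1 probe set. It read 1191, 1897 and 1988 on the B cell arrays and 10524, 11246 and 10808 on the plasma cell arrays. Every plasma cell array was far above every B cell array, and B cell array 1 was the lowest. The plasma cell mean was 10859 ± 364 (SD, n = 3) against 1692 ± 436 for B cells, a log2 fold change of 2.71 ± 0.22 SE (adjusted p = 0.000546). Without B cell array 1 it was 2.47 (adjusted p = 0.000133).

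Ppib, cyclophilin B, is an abundant ER cyclophilin that acts with other ER chaperones and on procollagen. Its probe set 1450911_at read 4269, 5187 and 5442 in B cells and 12227, 12409 and 12172 in plasma cells, and rose by 1.31 ± 0.15 (adjusted p = 0.0016). The x probe set 1437649_x_at read 3601, 4309 and 4493 against 10762, 11040 and 10715, and rose by 1.39 ± 0.14 (adjusted p = 0.00115). The probe sets gave rises within their standard errors of each other, and in both the plasma cell arrays lay within a narrow range above all B cell arrays. Without B cell array 1 the log2 fold changes were 1.21 and 1.30.

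Fkbp11, a membrane-anchored ER FKBP expressed mainly in secretory cells, rests on 1 of its 3 probe sets. The probe set 1417267_s_at read 155, 237 and 195 in B cells and 7409, 8138 and 7414 in plasma cells, with no overlap. The mean was 7654 ± 419 in plasma cells and 196 ± 40.9 in B cells, a log2 fold change of 5.19 ± 0.18 (adjusted p = 5.59e-05). The other probe sets did not show a rise of that size. The probe set 1425938_a_at read 60.5, 40.7 and 53.0 in B cells and 63.0, 59.4 and 67.1 in plasma cells, with overlapping groups (0.24, 95% interval −0.15 to 0.63, adjusted p = 0.323). The third, 1425839_at, lay near background at 20.8 to 31.8 in B cells and 24.2 to 51.4 in plasma cells (0.25, interval −0.32 to 0.81). When probe sets with suffix x or s were left out of the gene fit, the log2 fold change of Fkbp11 was 0.24 and the call was lost (adjusted p = 0.291), and with the mean of its 3 probe sets it was 1.90 (adjusted p = 0.000137). Why the 3 probe sets of the gene differ was not tested.

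Fkbp14 (FKBP22), an ER isomerase that acts on procollagen, was over background in plasma cells only. Its probe set 1433481_at read 21.7, 10.9 and 13.9 in B cells, within background on all 3 arrays, and 363, 312 and 192 in plasma cells. That is at least 9.75-fold higher, computed without the added constant and with B cell values set to each array's background limit where they lay below it (adjusted p = 0.000544). The fitted log2 fold change of 3.25 depends on the constant, from 2.12 with 64 added to 4.14 with 1 added. The second probe set, 1458225_at, read between 1.00 and 4.61 on all 6 arrays and gives no level.

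Ppic, cyclophilin C, an ER cyclophilin known from stromal and epithelial cells, was the ER member without a call. Its single probe set read 17.48, 9.23 and 21.89 in B cells and 13.97, 14.22 and 12.20 in plasma cells, within background on every array, so no fold is given. Its fitted log2 fold change was −0.11 (interval −0.56 to 0.34, adjusted p = 0.709).

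**Figure D2:**
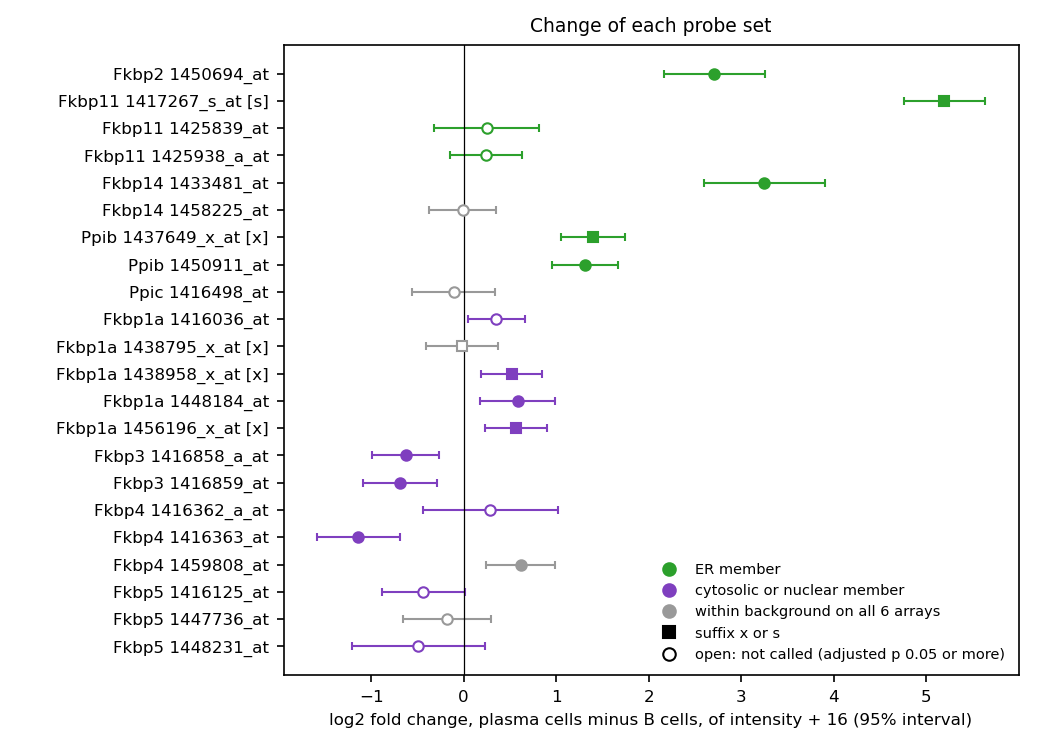
Log2 fold change (plasma cells minus B cells, intensity + 16) of the 22 probe sets with 95% intervals, filled where called, square for suffix x or s, green for ER members, purple for cytosolic or nuclear members and grey for probe sets within background on all 6 arrays. The Fkbp11 probe set with suffix s stands at 5.19 and the other Fkbp11 probe sets near 0.24, and the Fkbp4 probe sets lie on both sides of 0.

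Among the cytosolic members, Fkbp1a encodes FKBP12, the main target of FK506 and rapamycin and a partner of TGF-beta type I receptors and of calcium release channels. Its 5 probe sets gave 3 calls, all higher. The x probe set 1438958_x_at read 3145, 2573 and 2853 in B cells and 4118, 3948 and 4192 in plasma cells (0.52 ± 0.14, adjusted p = 0.0376). The probe set 1448184_at, without such a suffix, read 2793, 2002 and 2225 against 3351, 3450 and 3644 (0.58 ± 0.17, adjusted p = 0.048). The third call, 1456196_x_at, had 0.57 ± 0.14 (adjusted p = 0.0285). In each of these the groups did not overlap, and B cell array 1 was the highest of its group. The probe set 1416036_at also had groups apart, 490 to 525 against 604 to 685, and was not called (0.35, interval 0.04 to 0.66, adjusted p = 0.0949), while 1438795_x_at lay within background on all arrays. The 3 calls were lost when any 1 of B cell arrays 2 and 3 or plasma cell arrays 1, 2 and 3 was left out, with adjusted p from 0.085 to 0.138.

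Fkbp3 (FKBP25), a nuclear FKBP that binds nucleic acids, fell. Its probe set 1416858_a_at read 4487, 5711 and 5369 in B cells and 3395, 3170 and 3469 in plasma cells, a log2 fold change of −0.62 ± 0.15 (adjusted p = 0.0259). The other, 1416859_at, read 3821, 4861 and 5027 against 2821, 2599 and 3038 (−0.69 ± 0.16, adjusted p = 0.0263). Both probe sets had all plasma cell arrays below all B cell arrays. Both calls were lost when any 1 of B cell arrays 2 and 3 or plasma cell arrays 1, 2 and 3 was left out, with adjusted p from 0.0604 to 0.102, and kept without B cell array 1.

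The calls of Fkbp1a and Fkbp3, though not their directions, were lost when each array was centred on its median. The median log2 fold change over all probe sets was −0.128, and centring each array on its median moved it to −0.011. After centring the 3 Fkbp1a values were 0.64, 0.70 and 0.69 with adjusted p from 0.0527 to 0.084, and the Fkbp3 values −0.51 and −0.57 with adjusted p of 0.254 and 0.219, none of them called. The ER calls held after centring, with 2.82 for Fkbp2, 5.31 for Fkbp11, 3.36 for Fkbp14, and 1.43 and 1.51 for Ppib. Quantile normalization, by contrast, kept all 3 lower probe sets, both of Fkbp3 among them. Of the higher probe sets it left 6 in place of 9, and Fkbp1a lost its call in the gene fit, with 4 higher members in place of 5.

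Fkbp4 (FKBP52) and Fkbp5 (FKBP51) are larger FKBPs that bind HSP90 and act on steroid hormone receptors in opposite ways, Fkbp4 raising and Fkbp5 lowering the response to glucocorticoid. The probe sets of Fkbp4 disagreed. The probe set 1416363_at read 223, 252 and 340 in B cells and 114, 107 and 118 in plasma cells and fell by 1.14 on the log2 scale (SE 0.18, adjusted p = 0.00646). The brighter 1416362_a_at read 409, 860 and 823 in B cells and 788, 804 and 845 in plasma cells, with overlapping groups (0.29, interval −0.44 to 1.01, adjusted p = 0.527). Of the B cell arrays only array 1 lay below the plasma cell range there, and without it the log2 fold change was −0.05. The remaining probe set, 1459808_at, was called higher (adjusted p = 0.0303) at 15.97 to 18.85 against 2.85 to 8.87, but lay within background on all 6 arrays and gives no level.

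Fkbp5, which is itself induced by glucocorticoid, was not called. Its brightest probe set 1416125_at read 481, 471 and 490 in B cells and 340, 287 and 442 in plasma cells. The groups did not overlap, and plasma cell array 3 lay closest to the B cells (−0.44, interval −0.88 to 0.01, adjusted p = 0.141). In the gene fit the same probe set had adjusted p = 0.122, and 0.0473 without plasma cell array 3, where the log2 fold change was −0.60. With array weights the gene fit also called it lower (adjusted p = 0.0262). The probe set 1448231_at read 108, 58.3 and 57.3 against 65.5, 46.8 and 31.6, with overlapping groups (−0.49, interval −1.21 to 0.23), and 1447736_at lay within background.

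The upstream sequence of 4 members is shown because 3 of them, Fkbp2, Fkbp11 and Ppib, rose, while Fkbp5 was not called and holds the short motifs that Ppib holds. The ER stress response factors ATF6 and XBP1 bind elements that hold CCACG or ACGTG. Each stretch below is the 250 bases before the most upstream RefSeq start of the gene in build GRCm38.p6, outside any annotated gene, written 5′ to 3′ along the gene. Capitals mark CCACG or ACGTG on either strand.
Fkbp2, chr19:6980465-6980714, strand minus: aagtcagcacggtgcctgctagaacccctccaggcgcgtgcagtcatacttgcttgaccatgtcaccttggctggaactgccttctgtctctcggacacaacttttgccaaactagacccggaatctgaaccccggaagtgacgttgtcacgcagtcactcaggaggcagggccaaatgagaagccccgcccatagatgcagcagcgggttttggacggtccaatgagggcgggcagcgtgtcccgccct
Fkbp11, chr15:98728199-98728448, strand minus: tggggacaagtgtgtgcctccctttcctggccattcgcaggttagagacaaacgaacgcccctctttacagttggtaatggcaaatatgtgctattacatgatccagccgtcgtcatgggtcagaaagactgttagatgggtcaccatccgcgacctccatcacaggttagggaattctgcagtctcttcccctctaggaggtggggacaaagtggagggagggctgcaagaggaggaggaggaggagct
Ppib, chr9:66059919-66060168, strand plus: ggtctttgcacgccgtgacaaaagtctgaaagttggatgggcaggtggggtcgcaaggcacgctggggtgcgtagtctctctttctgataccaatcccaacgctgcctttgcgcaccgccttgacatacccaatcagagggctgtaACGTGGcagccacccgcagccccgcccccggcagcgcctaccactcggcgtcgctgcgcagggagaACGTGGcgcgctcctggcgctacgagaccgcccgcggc
Fkbp5, chr17:28486150-28486399, strand minus: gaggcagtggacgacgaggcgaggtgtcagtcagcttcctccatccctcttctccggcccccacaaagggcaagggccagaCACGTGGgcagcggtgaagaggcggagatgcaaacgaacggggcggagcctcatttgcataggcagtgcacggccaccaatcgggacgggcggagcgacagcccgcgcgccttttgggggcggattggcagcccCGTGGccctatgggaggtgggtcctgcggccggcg
Ppib holds ACGTGG at 2 places, each a match to both motifs, which overlap there, and Fkbp5 holds CACGTGG and a separate CGTGG. The stretches of Fkbp2 and Fkbp11 hold neither. The 9 members with an entry include Ppia and lack Ppic, so they are not the 9 measured members. Over all 13 of their starts, CCACG lay before 5 starts of 5 genes, namely Fkbp2, Fkbp11, Ppib, Fkbp3 and Fkbp5, and ACGTG before 2 starts of 2 genes. Over the 250 bases before each of 32851 starts in the same table, 28.3% held CCACG and 16.6% ACGTG. The full ER stress response element, CCAAT and CCACG with 9 bases between them, was searched on both strands and lay before 0 of the 13 starts and 0.113% of all starts. Of the genes with CCACG, Fkbp2, Fkbp11 and Ppib rose, Fkbp3 fell and Fkbp5 was not called. Fkbp14, which rose, held neither short motif before either of its starts. Whether the motifs go with the changes was not tested. These are matches of letters in a window and not measured binding.

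Related genes were counted in the gene fit from lists chosen with earlier results of these data known. In that fit 17.6% of all genes were called higher and 12.3% lower. Of 7 measured genes among the other FKBPs and FKBP-like genes, 1 rose and 2 fell, with a median of −0.05. This list was not split by compartment, and Fkbp7 and Fkbp9 in it are ER FKBPs as well. Fkbp7 read 287 ± 27.2 in B cells and 312 ± 87.6 in plasma cells and was not called (0.08, adjusted p = 0.802). Fkbp9, over background on 1 B cell array only, was not called either (−0.64, adjusted p = 0.131). Fkbp15, an actin-associated FKBP of early endosomes, fell from 1629 ± 379 to 646 ± 47.3 (−1.29 ± 0.21, adjusted p = 0.0055). Fkbp1b, the close relative of FKBP12 known from muscle, was called higher (adjusted p = 0.00425), at 34.0 to 52.9 in plasma cells, over background on 2 of 3 arrays, and within background on all B cell arrays. Aipl1, an FKBP-like chaperone of photoreceptors, was called lower (−1.39 ± 0.14, adjusted p = 0.000846) on a probe set with suffix s. Without suffix x and s probe sets its log2 fold change was 0.10 and it was not called. Of 12 other cyclophilins 0 rose and 1 fell by limma (2 and 2 at an unadjusted p under 0.05), with a median of −0.06. The one that fell was the spliceosomal Ppil1 (−0.61 ± 0.15, adjusted p = 0.0242), and its call was lost without B cell array 2 or 3 or plasma cell array 1 or 2 (adjusted p from 0.0802 to 0.0997). Without B cell array 1 the counts were 2 higher and 2 lower.

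ER folding partners, chaperones and oxidoreductases that work beside the ER isomerases, rose in 17 of 18 cases with 0 lower (0 also at an unadjusted p under 0.05) and a median of 1.83. The co-chaperone-like Sdf2l1 rose by 3.77 ± 0.13, the peroxiredoxin Prdx4 by 3.58 ± 0.11 and the ER stress gene Creld2 by 3.27 ± 0.22. Genes of collagen folding, on which Ppib and Fkbp14 also act, gave 5 higher and 0 lower of 17 (0 lower also at an unadjusted p under 0.05), with a median of 0.61. Over all genes 17.6% were higher and 12.3% lower. Crtap, which forms a complex with cyclophilin B and prolyl 3-hydroxylase, rose from 229 ± 73.7 to 941 ± 92.7 (2.01 ± 0.25, adjusted p = 0.00217). P4hb, which is both protein disulfide isomerase and a subunit of prolyl 4-hydroxylase, rose by 1.49 ± 0.11 and the hydroxylase subunit P4ha2 by 1.40 ± 0.23, the latter over background on 1 B cell array only. The collagen count was 8 without B cell array 1 and 3 when a plasma cell array was left out, whichever it was. The cyclophilin partners Bsg, a surface receptor of cyclophilin A also called CD147, and Lgals3bp, which binds cyclophilin C, rose by 1.39 ± 0.16 and 2.73 ± 0.16.

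**Figure D3:**
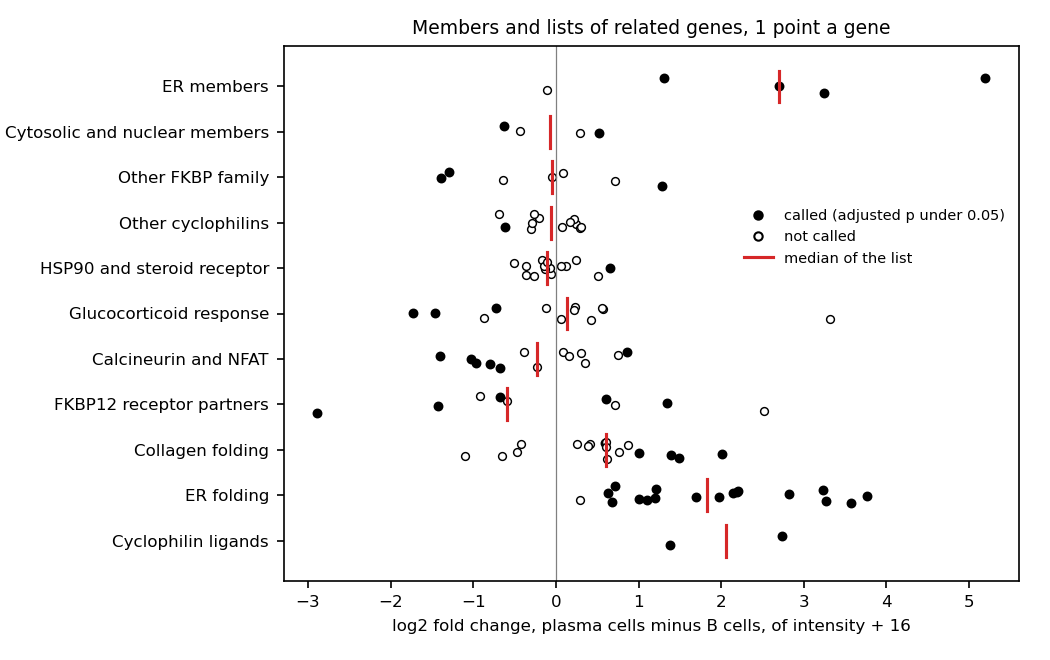
Log2 fold change (plasma cells minus B cells, intensity + 16) of the measured genes of each list, 1 point a gene, filled where called, with the median as a red line. The ER members and the ER folding genes have medians of 2.71 and 1.83. The other FKBPs and other cyclophilins have medians of −0.05 and −0.06, and range from −1.39 to 1.28 and from −0.68 to 0.31.

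For the HSP90 and steroid receptor machinery, in which Fkbp4 and Fkbp5 work, limma called 1 of 15 genes higher and 0 lower (0 lower also at an unadjusted p under 0.05), with a median of −0.11. The higher one was the kinase co-chaperone Cdc37 (0.65 ± 0.11, adjusted p = 0.00597), which was not called after median centring (adjusted p = 0.0558) or when its probe sets were averaged (adjusted p = 0.505). Without B cell array 1, 5 genes of this list were called lower. Of 12 glucocorticoid response genes 0 rose by limma (1 at an unadjusted p under 0.05) and 3 fell, with a median of 0.14. Both lists stand beside 17.6% higher and 12.3% lower of all genes. The glucocorticoid response genes that fell were the kinase Sgk1 (−1.73 ± 0.47), the transcription factor Klf9 (−1.46 ± 0.25) and the mTOR inhibitor Ddit4 (−0.72 ± 0.16). The calls of Sgk1 and Ddit4 were lost without B cell array 2 or 3 or plasma cell array 1 or 2, leaving 1 lower gene. With its probe sets averaged, Klf9 was lower by less (−0.64, adjusted p = 0.0243).

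Calcineurin is the phosphatase that FKBP12 and cyclophilin A block when bound to FK506 or cyclosporin A, and NFAT factors are its substrates. Of 13 genes of this list 1 rose and 5 fell, beside 17.6% and 12.3% of all genes, with a median of −0.23. The catalytic subunit Ppp3cc rose from 2419 ± 57.6 to 4397 ± 41.5 (0.86 ± 0.11, adjusted p = 0.00202). The NFAT genes Nfat5 (−1.41 ± 0.17), Nfatc1 (−1.02 ± 0.13) and Nfatc2 (−0.97 ± 0.14) fell most, of which Nfat5 does not depend on calcineurin. The call of Nfatc2 was lost when its probe sets were averaged (adjusted p = 0.173) and after median centring (adjusted p = 0.0612), and centring left 2 lower genes in the list. Without B cell array 1, 2 genes were higher. Among 9 receptors and channels of families in which FKBP12 has partners, 2 rose and 3 fell. These counts stand beside 17.6% and 12.3% of all genes, and the median was −0.60. The calcium release channel Ryr1 rose by 1.34 ± 0.13, from 1685 ± 25.3 to 4305 ± 456, and the TGF-beta receptor Tgfbr1 by 0.60 ± 0.12. Ryr2, within background on all plasma cell arrays, was at least 5.53-fold lower (adjusted p = 0.006). Its B cell values were 377, 104 and 122, and without B cell array 1 the bound was 3.69-fold. When its probe sets were averaged its log2 fold change was −1.50 in place of −2.89. The channels Itpr3 (−1.43 ± 0.25) and Itpr2 (−0.68 ± 0.16) fell. The higher count was 4 without B cell array 1, and 1 without B cell array 2 or plasma cell array 2, where the call of Tgfbr1 was lost. Tgfbr1 was also not called after median centring (adjusted p = 0.0639) or when its probe sets were averaged (adjusted p = 0.892). The call of Itpr2 was lost without any 1 of the arrays other than B cell array 1 (adjusted p from 0.0636 to 0.0857).

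The pattern of Fkbp11 was taken from its probe set 1417267_s_at alone, and each gene was centred on its own mean. The root mean square difference of log2 values over the 6 arrays then gave the genes most like it. They were Copz2, a subunit of the COPI vesicle coat (0.142), Filip1, a filamin-interacting protein (0.153), and Creb3l2, an ER-bound transcription factor (0.162). In B cells Copz2 and Filip1 did not exceed background on any array, so their likeness depends on the constant. For Fkbp5 they were the replication helicase subunit Mcm4 (0.0417), Ovol2 (0.0595) and the centriole gene Sass6 (0.0652), and Ovol2 lay within background on all 6 arrays. Like Fkbp5 itself, none of them was called by limma (adjusted p from 0.138 to 0.174).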

How the data were processed

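RNA of 3 plasma cell and 3 B cell samples was measured on 1-colour Affymetrix arrays. The deposited table holds intensity values on a linear scale, 1 per probe set and array, and the authors' summary and normalization are not given in the sources used here. The highest intensity was 25764 to 26749 and the upper quartile 625 to 684 over the 6 arrays. Of 45101 probe sets 64 were controls. Of the rest, 34945 had 1 gene symbol in the platform annotation, 932 had several and 9160 are unnamed here. Symbols were updated through Entrez identifiers in the RefSeq table of GRCm38.p6, where 34741 matched. All columns matched a sample (0 unmatched).

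Values were transformed as log2(intensity + 16), which understates changes of dim genes, and compared with limma 3.58.1 in R 4.3.3 (lmFit, eBayes, Benjamini-Hochberg adjustment, threshold 0.05). One fit took all probe sets that are no controls. A second took 1 probe set a gene, that with the highest mean. The number of arrays limits the precision. Promoter sequences came from RefSeq. The members and lists were chosen with earlier results of these data known. All members are named, and in each list up to 3 called genes with the largest change in each direction (5 for other FKBPs and cyclophilins). Genes named after their values were seen are Xist, Kdm5d, Fkbp7 and Fkbp9. Of the lists, the parvulins had 0 measured genes. Lists of monocytes and macrophages (1 higher and 3 lower of 9), stromal and endothelial cells (1 and 1 of 9) and megakaryocytes and platelets (1 and 0 of 5) were also counted, and the T and NK, granulocyte and erythroid lists had 1 and 0, 1 and 1, and 0 and 0 called. The fits were tested on simulated data.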

Additional observations from a re-analysis of the deposited data

How the results depend on the processing

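The 5 ER probe sets that rose (Fkbp2, Fkbp11 1417267_s_at, Fkbp14 1433481_at and both of Ppib) and Fkbp4 1416363_at, which fell, kept direction and call under all 14 alternatives of the probe set fit. The count of higher probe sets was 9 and fell to 5 after median centring, and that of lower ones fell from 3 to 1. Leaving out 1 array gave 5 to 9 higher and 1 to 3 lower probe sets. At the level of genes the count of lower members, 1, was 0 after median centring, 2 with array weights and 0 to 1 when 1 array was left out. The 2 were Fkbp3 and Fkbp5, and without plasma cell array 3 the 1 lower member was Fkbp5 in place of Fkbp3. The labels number the replicates 1 to 3 in both groups, but same-numbered arrays did not deviate together (correlations 0.0495, 0.00316 and 0.0529), so the numbers were not taken as pairs. With the replicate number as a block 5 probe sets were higher and 1 lower, and 0 genes were lower. Over all features, array weights called 21041 probe sets and 9494 genes against 11797 and 5439. Leaving out 1 array gave 7248 to 17486 probe sets and 3571 to 7951 genes.

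Direction changed only in values without a call, except for Aipl1 (0.101 without suffix x and s probe sets). Median centring turned Fkbp14 1458225_at (0.106), Ppic (0.009) and Fkbp1a 1438795_x_at (0.099), and quantile normalization the same 3 (0.034, 0.008 and 0.085). Array weights turned them too (0.03, 0.086 and 0.129, and 0.094 for Ppic in the gene fit), with Fkbp5 1447736_at (0.022) and Fkbp4 1416362_a_at (−0.055, and −0.061 in the gene fit). A pseudocount of 1 turned Fkbp1a 1438795_x_at (0.012) and the mean of its probe sets Fkbp4 (−0.077). Without 1 array, Fkbp14 1458225_at ranged from −0.104 to 0.04, Ppic from −0.274 to 0.019, Fkbp1a 1438795_x_at from −0.114 to 0.105 and Fkbp4 1416362_a_at from −0.05 to 0.471. The causes were not tested. Values within background on all arrays have no measured direction.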
